A study of Arabidopsis thaliana with 6 samples.

Results

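UGT73B5 (AT2G15480) and AER (AT5G16970) are a pair of detoxification genes of Arabidopsis thaliana, followed here over the first hours after a paraquat spray. The members were the probe sets that name either gene alone, which gave 1 probe set for each gene among the 22746 compared, so 2 genes of the 13286 that a probe set names alone. The pair was chosen by its paraquat/mock ratios on these arrays, already known to be high at 4 h. Those ratios are given as a description, with no test, and the comparison of interest is the timing of the rise.

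All plants carried the flu1-1 mutation in the Landsberg erecta ecotype, controls included, so no wild-type plants enter any comparison. The flu mutant lacks a brake on chlorophyll synthesis and is known for releasing singlet oxygen when plants return from dark to light, but these plants stood in continuous light throughout. At 3 weeks of age and before bolting, they were sprayed with paraquat in 0.1% Tween or with the Tween solution alone as a mock, and rosettes were taken after 1, 2 or 4 h. The dose is 20 mM in the sample titles and 20 microM in the treatment protocol. Each of the 6 arrays holds leaves of 5 to 6 plants and RNA pooled from 2 experiments, so there is 1 array per treatment and hour and no spread between replicates can be given.

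Paraquat, or methyl viologen, draws electrons from photosystem I and hands them to oxygen, and the superoxide and peroxide that follow attack membrane lipids. Broken lipid peroxides yield reactive carbonyls such as 4-hydroxy-2-nonenal, whose carbon double bond reacts with proteins. AER is an NADPH-dependent 2-alkenal reductase that saturates this double bond, and tobacco that overproduces the Arabidopsis enzyme is known to be less damaged by paraquat. UGT73B5 belongs to the UDP-glycosyltransferases, which attach a sugar from a UDP-sugar to small molecules and so make them soluble and ready for storage in the vacuole. It is known as a gene induced by oxidative stress and by pathogens, and it contributes to resistance to Pseudomonas syringae.

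UGT73B5 had the higher log2 ratio of the pair at each hour and the steeper rise. Its mock signal went from 30.7 after 1 h through 91.2 after 2 h to 102.0 after 4 h. The paraquat arrays of the same hours read 62.6, 274 and 995. The paraquat array was thus the higher of its pair at every hour, and the 2 and 4 h paraquat arrays stood above all 3 mock arrays. Both 1 h signals lay below the floor of 86.2, the 40th percentile of all signals, so the 1 h difference rests on dim values. The mock signals at 2 and 4 h, 91.2 and 102.0, lay only a little above the floor, so the ratios of these hours also rest on dim mock values. On the scale log2(signal + 34), on which all ratios below are given as paraquat minus mock, UGT73B5 stood at 0.58, 1.30 and 2.92 at the successive hours.

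AER stood at a measured level at all hours, with the lower ratio of the pair at each. Its mock signals at the successive hours were 474, 547 and 641, beside paraquat signals of 432, 699 and 1720. The paraquat array was the lower one at 1 h, by a small margin, and the higher one at 2 and 4 h. The order of the mock and paraquat arrays thus changed between 1 and 2 h. Its log2 ratios were -0.12, 0.34 and 1.38. Only the 4 h ratio of AER reached 2-fold.

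**Figure D1:**
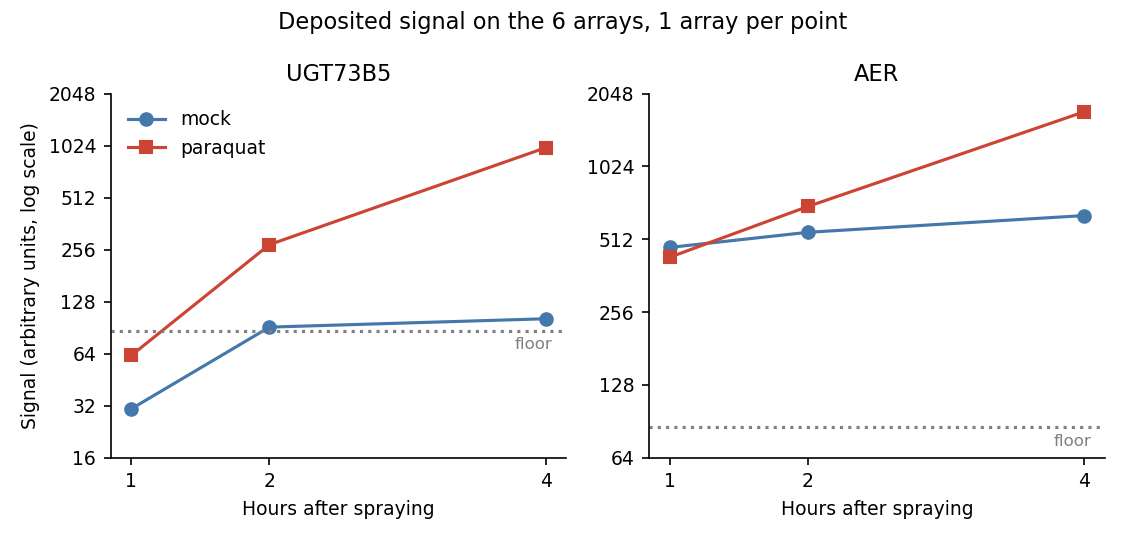
Deposited signal (log scale) of UGT73B5 and AER against hours after spraying, for mock (blue circles) and paraquat (red squares) leaves, with 1 array per point and the floor of 86.2 dotted. The UGT73B5 lines are apart at each hour, from 30.7 against 62.6 at 1 h to 102.0 against 995 at 4 h, while the AER lines cross between 1 and 2 h and end at 641 against 1720.

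Read as plain signals without the pseudocount, paraquat over mock for UGT73B5 was 2.04, then 3.00 and finally 9.75. For AER the same quotient was 0.911, 1.28 and 2.68. By 2 h the log2 ratio of UGT73B5 had reached 44.4% of its 4 h value, against 24.4% for AER. These shares use the 2 and 4 h arrays alone and do not take out the 1 h ratios, 0.58 and -0.12. Of these, the 1 h ratio of UGT73B5 rests on signals under the floor. The gap between the log2 ratios of UGT73B5 and AER widened over the hours, from 0.70 through 0.96 to 1.54. Both genes gained more in ratio from 2 to 4 h than from 1 to 2 h. The gains were 1.62 against 0.72 log2 units for UGT73B5 and 1.04 against 0.46 for AER, in similar proportion. Each interval is a doubling of time, but the later one is the longer in hours. Averaged over the hours, the log2 ratio was 1.60 ± 1.20 (SD over 3 hours) for UGT73B5 and 0.53 ± 0.77 for AER, and the large SDs hold the change with time.

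The growth of the ratios came from the paraquat arrays, against a smaller rise on the mock arrays. Per doubling of time, log2(signal + 34) of UGT73B5 rose by 1.71 in paraquat and 0.54 in mock leaves, and that of AER by 0.96 and 0.21. The mock change of UGT73B5 fell almost wholly between 1 and 2 h, at 0.95 log2 units, with 0.12 between 2 and 4 h. Its paraquat change was nearly equal per doubling of time, at 1.67 and then 1.74 log2 units, though the later interval is the longer in hours. AER moved little in mock leaves, by 0.19 and 0.22 log2 units in the successive intervals, and by 0.66 and 1.26 in paraquat leaves. From 1 to 4 h after paraquat, 5 of 14110 probe sets gained more than UGT73B5 and 72 gained more than AER. In mock leaves 441 of 14316 gained more than UGT73B5 over the same hours. Both 1 h signals of UGT73B5 lay under the floor, so its changes from 1 h and these counts rest on dim starting values. It entered these comparisons through its later arrays, and the pair was chosen by its 4 h ratios, so the counts test nothing. The share of probe sets that gained at least 2-fold from 1 to 4 h was 2.88% in paraquat and 3.49% in mock leaves.

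**Figure D2:**
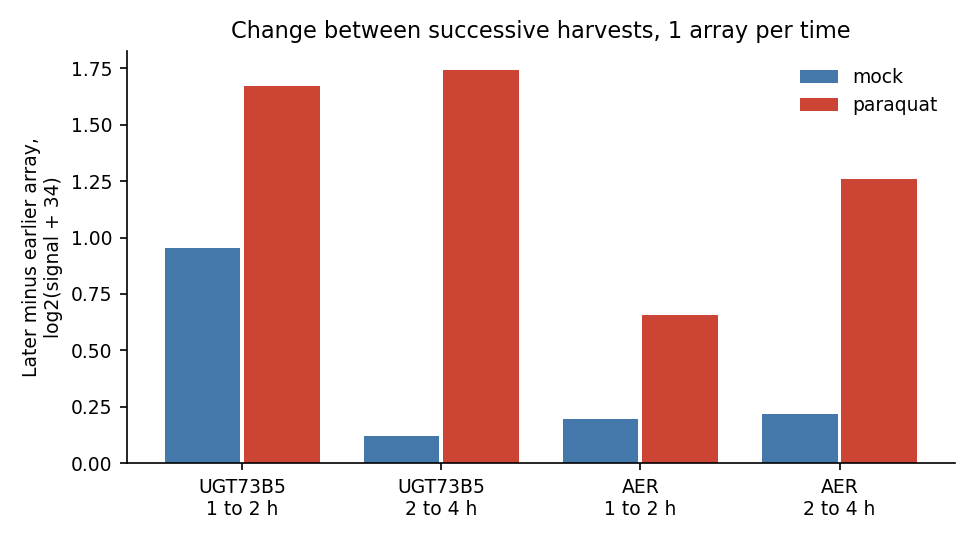
Change in log2(signal + 34) between successive harvests for UGT73B5 and AER, each bar the difference of 2 arrays, mock in blue and paraquat in red. The paraquat bars of UGT73B5 are nearly equal at 1.67 and 1.74, while its mock bars are 0.95 and 0.12, and for AER the later paraquat bar (1.26) is the taller one. Both 1 h signals of UGT73B5 lie under the floor, and the later interval is the longer in hours.

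Against all probe sets, UGT73B5 ranked nearer the top than AER at 2 and 4 h. A larger ratio passes a fixed threshold sooner, so this order does not measure timing. A probe set entered the comparison of an hour where at least 1 of the arrays lay above the floor. At 2 h, 0.45% of the 14217 compared were at least 2-fold higher with paraquat, and UGT73B5 stood at rank 22 from the top while AER stood at rank 1520. At 4 h the share at least 2-fold higher was 1.24%, which is 172 of 13914 probe sets, and UGT73B5 stood at rank 12 and AER at rank 82. At 1 h, when the share was 0.457%, AER lay below the middle, with 31.2% of the 14214 ratios under its own, and UGT73B5 was too dim to enter. These ranks are what the pair was known for and test nothing.

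**Figure D3:**
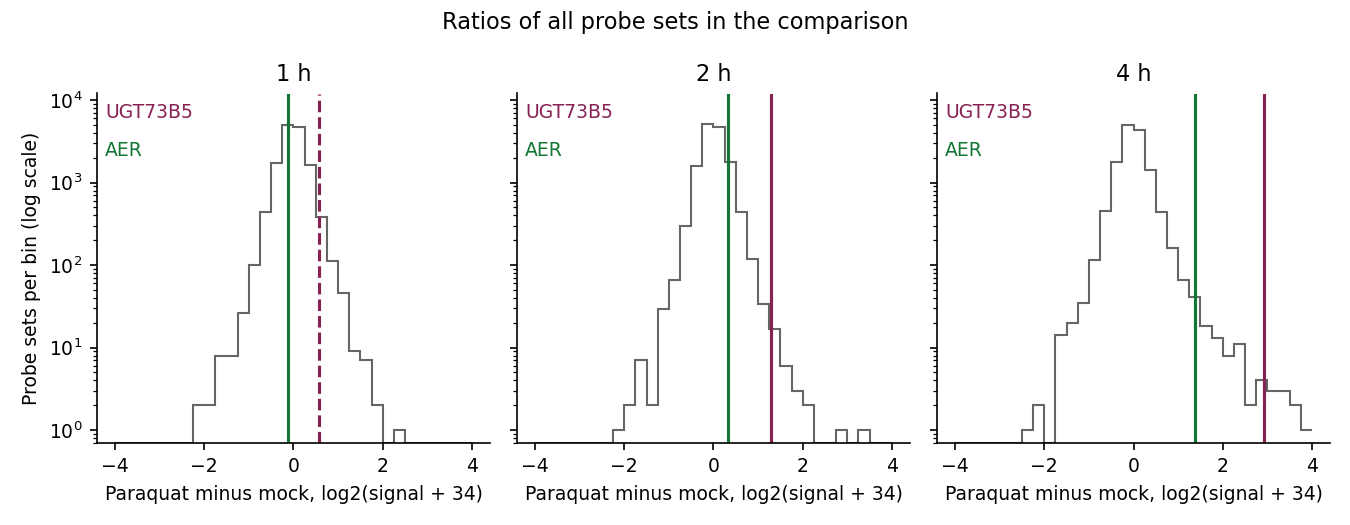
Number of probe sets (log scale) by paraquat minus mock log2(signal + 34) at 1, 2 and 4 h, in bins along the horizontal axis, with the values of UGT73B5 and AER as vertical lines, dashed where the gene was too dim to enter. UGT73B5 moves from 0.58 to 1.30 to 2.92 and leaves the bulk at 2 h, and AER moves from -0.12 to 0.34 to 1.38 and leaves it at 4 h.

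Of the 172 probe sets at least 2-fold higher at 4 h, 17 were so at 2 h as well, UGT73B5 among them, and 6 at 1 h. With a pseudocount of 136, the 2 h log2 ratio of UGT73B5 was 0.85 and no longer 2-fold. The median log2 ratio of the 172 was 0.16 at 1 h and 0.31 at 2 h. AER, at 0.34, had a 2 h ratio close to that median, with 79 of the 172 above it, whereas 8 were above UGT73B5. The ratio grew from 1 to 2 h and again from 2 to 4 h in 101 of the 172 (58.7%), UGT73B5 and AER included. It did so with a positive ratio at all hours in 54, which include UGT73B5 and not AER. The 172 were picked by their 4 h ratio, so a rise from 2 to 4 h was largely fixed in advance. Of them, 57 had a mock 4 h signal under the floor and entered through the paraquat array alone. These counts therefore only describe.

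The closest relatives of UGT73B5 gave a mixed picture. Of the other 12 UGT73 genes listed, 6 had a probe set naming them alone in the annotation used, which gives no gene for 8730 of the 22746 probe sets. The glycosyltransferase gene UGT73C1 gave mock signals of 2.94, 1.76 and 7.62 at 1, 2 and 4 h and paraquat signals of 30.2, 36.0 and 145, with log2 ratios of 0.80, 0.97 and 2.1. Its paraquat arrays were all above its mock arrays, but only the last passed the floor. The enzyme it encodes is known to glucosylate the explosive trinitrotoluene, as is that of UGT73B4. UGT73B1 read 32.9, 54.1 and 31.7 on the mock arrays against 28.6, 70.1 and 153 on the paraquat arrays, a log2 ratio of 1.51 at 4 h after -0.10 and 0.24.

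UGT73B4 (AT2G15490) is the next protein-coding gene to UGT73B5 on chromosome 2 in the TAIR10.1 gene table. Mock arrays read 2.29, 4.33 and 1.99 for it, and paraquat arrays 3.85, 4.27 and 60.8. It was thus near the bottom of the scale on 5 arrays and higher on the paraquat 4 h array, still under the floor. Its log2 ratios were 0.06, 0.00 and 1.40. At 2 h, when UGT73B5 went from 91.2 in mock to 274 in paraquat leaves, the UGT73B4 probe set showed 4.33 and 4.27. UGT73C7 had its largest log2 ratio at 2 h (0.96) and stood at -0.19 at 4 h, with all signals under the floor.

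Genes above the floor on at least 3 arrays were tested with limma, for the paraquat effect averaged over the hours and for its change with time, with the hours standing in for replicates. The only one of these 6 relatives bright enough was UGT73D1, named after its values were seen. It read 461, 1072 and 861 after mock and 403, 789 and 538 after paraquat spraying, so the paraquat array was the lower at each hour. The averaged log2 ratio was -0.42 ± 0.12 (moderated SE, limma adjusted p = 0.26), which did not pass. At 4 h, 3 UGT73 relatives could be compared, and 2 of them, UGT73B1 and UGT73C1, were at least 2-fold higher. Each of these 2 passed the floor through the paraquat 4 h array alone and had to differ to be counted, so the count is no support.

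**Figure D4:**
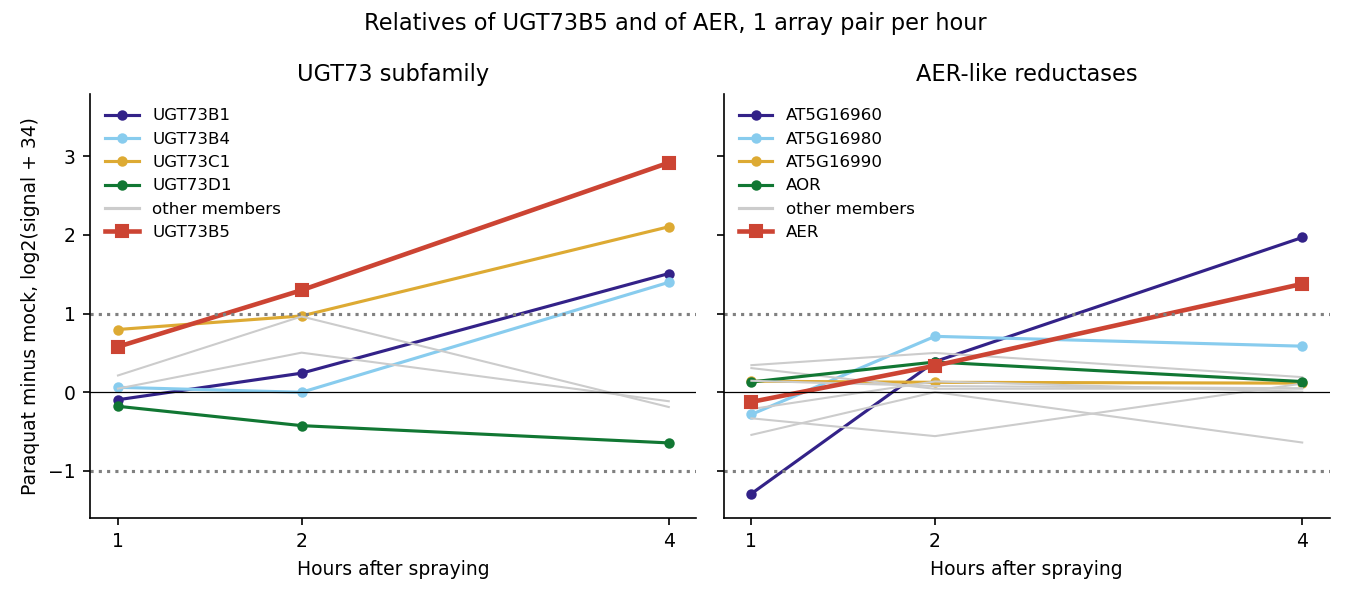
Paraquat minus mock log2(signal + 34) against hours after spraying for the UGT73 genes (left) and the AER-like reductases (right), 1 array pair per point, dotted lines marking 2-fold. UGT73C1, UGT73B1 and UGT73B4 lie above the line at 4 h with UGT73B5 (2.92), UGT73D1 ends at -0.65, and on the right AT5G16960 (1.97) lies above AER (1.38) while AT5G16990 and AOR lie near 0.

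In the wider UDP-glycosyltransferase family no gene passed either test. Outside the UGT73 group, 40 further UGT genes had a probe set of their own, and 21 of these were tested. With limma 0 passed the test of the effect averaged over the hours (1 at an unadjusted p under 0.05), which called 0.253% of all probe sets higher and 0.065% lower. In the test of its change with time 0 passed (3 unadjusted), and 0.426% and 0.347% of all did. Without the filter on low signals, limma called 0 of all probe sets in either test (1821 and 1958 at an unadjusted p under 0.05). Without the variance trend it called 1 in the averaged test and 0 for change with time (1376 and 1452 unadjusted). The median averaged log2 ratio of the 21 was 0.12, against -0.01 over all probe sets tested. At least 2-fold higher were 1 of 21 compared at 1 h, 1 of 21 at 2 h and 0 of 23 at 4 h, against 0.457%, 0.45% and 1.24% of all, shares at which few or none of so short a list would be counted. The gene counted at 1 and at 2 h was UGT85A7. It passed the floor there through the paraquat array alone and had to differ to be counted, so these counts are no support. At 4 h their median log2 ratio was 0.06, against -0.02 over all.

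Single UGT genes had large ratios at one hour or another. UGT85A7 had mock signals of 20.2, 22.4 and 107 beside paraquat signals of 90.8, 102 and 76.6, so paraquat leaves were higher at 1 and 2 h (log2 ratios 1.20 and 1.27) and lower at 4 h (-0.35). Its 1 and 2 h mock signals and its 4 h paraquat signal lay under the floor. UGT76E12 stood at 1.03 at 2 h on signals under the floor. UGT76C2, whose enzyme glucosylates cytokinins, stood at 0.95 at 4 h. UGT76B1, known for glucosylating the defence compound isoleucic acid, stood at -0.93 at 2 h and at 0.00 at 4 h. UGT85A7, UGT76C2 and UGT76B1 were tested and did not pass (limma adjusted p of the averaged effect 0.49, 0.62 and 0.77).

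AER lies in a row of related genes on chromosome 5. Its neighbours in the gene table are AT5G16960 and AT5G16980, which were listed with it as AER-like reductases. AT5G16960 gave mock signals of 77.8, 58.8 and 37.5 and paraquat signals of 11.7, 87.5 and 246, so paraquat leaves were the lower at 1 h and the higher later. Its log2 ratios were -1.29, 0.39 and 1.97. All its mock signals and the 1 h paraquat signal lay under the floor, so the 1 h ratio and the mock change rest on dim values. AT5G16980 stood at -0.28, 0.71 and 0.58, with no array above the floor.

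AT5G16990, a further gene of the row named after its values were seen, was bright on all arrays and flat. Mock arrays gave 634, 759 and 744 and paraquat arrays 701, 830 and 807, with an averaged log2 ratio of 0.13 ± 0.10 (moderated SE, limma adjusted p = 0.72). The 4 h difference of AER was thus not matched by this gene, whose log2 ratio at 4 h was 0.11. Whether oligonucleotides of one probe set in the row also bind transcripts of its neighbours was not tested.

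In all, 10 of the other 13 AER-like genes had a probe set, 5 were tested and 0 passed either limma test (1 and 0 at an unadjusted p under 0.05). Over all probe sets the averaged test called 0.253% higher and 0.065% lower, and the test of change with time 0.426% and 0.347%. At these shares few or none of 5 genes would be called. At 4 h, 1 of the 5 compared, AT5G16960, was at least 2-fold higher, against 1.24% of all. It passed the floor through the paraquat array alone and had to differ to be counted, so the count is no support. AT5G37980 stood at -0.64 at that hour, with all signals under the floor. AT3G59845 had its largest log2 ratio in size, -0.56, at 2 h, and both its 4 h signals lay under the floor. AOR, the chloroplast reductase that acts on the same class of carbonyls as AER and was named after its values were seen, had signals from 2456 to 4774. Its averaged log2 ratio of 0.22 ± 0.09 did not pass (limma adjusted p = 0.44).

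Of the enzymes that remove aldehydes by other routes, none of the 11 genes tested passed a test. Of 25 genes listed, among them aldehyde dehydrogenases, aldehyde reductases and glyoxalases, 12 had a probe set and 11 were tested, with a median averaged log2 ratio of 0.00. With limma 2 had an unadjusted p under 0.05 for the averaged effect and 1 for the change with time. Over all probe sets the averaged test called 0.253% higher and 0.065% lower, and the test of change with time 0.426% and 0.347%. At these shares few or none of 11 genes would be called. At 4 h 0 of 11 compared were at least 2-fold higher or lower, against 1.24% and 0.517% of all. The largest ratios in size belonged to ALDH7B4, a dehydrogenase known from drought and salt stress, which stood at 0.56, 0.53 and -0.60. ALDH11A3, the non-phosphorylating glyceraldehyde-3-phosphate dehydrogenase, had an averaged log2 ratio of 0.34 ± 0.10 (limma adjusted p = 0.27). ALDH2C4, which acts in sinapate and ferulate synthesis, had -0.24 ± 0.08 (limma adjusted p = 0.32). The chloroplast aldehyde reductase gene AT3G04000 had its largest log2 ratio, 0.26, at 2 h.

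Of the conjugation and export genes of the xenobiotic response, 4 of 29 had a probe set naming them alone, so this list is covered thinly. The MATE transporter gene AT2G04050 had log2 ratios of 1.16, 0.12 and 0.30, with the highest at 1 h. It read 30.8, 64.3 and 128 on mock arrays and 111, 72.7 and 166 on paraquat arrays. Its 1 h mock signal and both 2 h signals lay under the floor, so the 1 h ratio rests on a dim value. A second MATE gene, AT2G04070, stood at 0.62, -0.23 and -0.01. The tau-class glutathione transferase gene GSTU25 stood at -0.66, -0.12 and 0.99 with all signals under the floor, and GSTU22 between -0.23 and 0.18. The 2 tested genes, both of the MATE group, did not pass either limma test (1 and 0 at an unadjusted p under 0.05). At the shares called over all probe sets, few or none of 2 genes would be called. The annotation used names no probe set for any of 13 oxylipin synthesis genes listed by that gene alone.

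Among 15 listed regulators of this response, GRX480 alone had a probe set named for it. GRX480, also called ROXY19, is a glutaredoxin that binds TGA transcription factors, which are known to switch on detoxification genes. Neither the direction in which GRX480 acts on such genes nor its bearing on UGT73B5 and AER was tested. Mock arrays gave signals of 2146, 2318 and 2270, and paraquat arrays 1396, 2232 and 2982. The mock arrays were level, and the paraquat arrays went from below them to above them. From -0.61 to 0.39 between the first and last harvest, the log2 ratio rose by 0.50 ± 0.10 for each doubling of the time (moderated SE; limma adjusted p = 0.031). The call was lost without the filter on low signals (limma adjusted p = 0.36) and without the variance trend (limma adjusted p = 0.30).

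Likeness of pattern was measured as Pearson's r of log2(signal + 34) over the 6 arrays, among 974 probe sets that name a single gene, lie above the floor on at least 3 arrays and span at least 1 log2 unit. All points come from the same arrays, so r only describes. The genes most like UGT73B5 were AT3G62550 (r = 0.99), AT5G43450 (0.98), AT2G41730 (0.98), the GTPase gene ARLA1C (0.97), the organic cation transporter gene OCT5 (0.97) and the zinc finger gene STZ (0.97). Whether the oligonucleotides of the AT2G41730 probe set (suffix _x_at) also bind other transcripts was not tested. OCT5 had mock signals of 150, 205 and 195 and paraquat signals of 114, 435 and 831. The genes most like AER were AT5G54300 (0.99), ARLA1C (0.98), UGT73B5 (0.96), AT3G62550 (0.95), AT3G52360 (0.95) and AT3G50270 (0.94). ARLA1C, near the top for both, stood at -0.20, 0.48 and 1.07 in log2 ratio. AER itself correlated with UGT73B5 at 0.96, and 8 probe sets came closer to UGT73B5 than AER did. Both were chosen for high 4 h ratios, so a high r between them was partly fixed by the choice. An r of at least 0.9 was reached by 26 probe sets with UGT73B5 and by 21 with AER.

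The late values of both genes rest on a single array, the paraquat 4 h array. Its median signal was 158.1, against 157.7 to 162.0 on the others. Its control probe set for 25S ribosomal RNA read 243, against 92.8 on the mock 4 h array and 92.8 to 308 over the series, and the 3'/5' quotient of the GAPDH control was 0.892 there and 1.01 in mock at 4 h. Of the leaf mesophyll genes listed, the antenna protein gene LHCB4.2 alone had a probe set, with signals from 3092 to 6699, and it rose with paraquat, by 0.58 ± 0.09 log2 units averaged over the hours (moderated SE, limma adjusted p = 0.042). That call was lost after quantile normalization, without the filter, trend or hour block, and without the 1 h or the 2 h arrays (limma adjusted p from 0.056 to 1.0). Of 4 guard cell markers listed, 2 had one, and their summed signal lay between 1508 and 2787 on mock arrays and between 1895 and 2647 on paraquat arrays. Their 4 h log2 ratios were 0.28 and 0.32. The pollen marker AT5G45880 stayed under the floor on all arrays, and the root hair gene EXPA7 passed it on the mock 1 h array alone, while the annotation used named no probe set for a trichome or vascular marker alone. The part of these values in the results was not tested. In whole leaves, more RNA per cell and more cells of a type cannot be told apart.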

How the data were processed

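RNA of rosette leaves was hybridised to 6 ATH1 arrays, 1 for each treatment and hour, and groups were read from the sample titles. Linear signal intensities of 22810 probe sets were deposited, made with MAS5 per the submitters' processing notes. Version and genome build are not given in the sources used here. On each array, the mean after trimming 2% of the values at each end was 500.04, so the authors' intensities carry a common scaling and show relative levels only. The number of arrays limits the precision.

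After 64 control probe sets were set aside, signals were put on the scale log2(signal + 34). The pseudocount makes ratios of dim probe sets smaller than those of the signals. Genes were named through the platform annotation and the TAIR10.1 gene table, which gave 1 gene for 13513 probe sets (13436 matched in the gene table). No gene was given for 8730 and several for 503. UGT73B5 and AER, the gene lists and the rules for naming were chosen with earlier results of these data known. UGT73B5 and AER are therefore described without a test.

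For the listed genes, limma 3.58.1 in R 4.3.3 was fitted to 13837 probe sets, those over the floor on 3 or more arrays, with harvest hour as a block and a variance trend. It tested the paraquat effect averaged over the hours and, with a term for treatment times log2 hour, its change with time, two-sided, with Benjamini-Hochberg adjustment over all 13837 and a threshold of 0.05. The hours stand in for replicates in both tests. They leave 2 and 1 residual degrees of freedom. The brightest probe set stood for a gene. For each list the 4 genes with the largest ratio in size at any hour were named, with those that passed a test, and for likeness the 6 highest correlations. Alternatives were other pseudocounts, quantile normalization, centring on the 75th percentile, no filter, no variance trend, no block and each hour left out.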

Additional observations from a re-analysis of the deposited data

Results flagged for a closer look

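At 1 h the log2 ratio of AER was small, at -0.12, with 31.2% of the ratios of all probe sets compared under it. At 4 h it was 1.38, so the single array pairs of these hours differed in sign. This difference was not tested, since AER was chosen for its ratios. The ratio of UGT85A7 did the reverse, with 1.20 at 1 h, where the mock signal lay under the floor, and -0.35 at 4 h, where the paraquat signal did. This difference did not pass the test of change with time (limma adjusted p = 0.24). The ratio of GRX480 differed between hours by that test, rising by 0.50 log2 units per doubling of time (limma adjusted p = 0.031), a call lost without the filter on low signals (0.36) and without the variance trend (0.30). At each hour there is 1 array per treatment, so a change of the effect and a deviant array cannot be told apart.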

How the results depend on the processing

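UGT73B5 and AER kept the sign of each ratio under the other pseudocounts (8.5, 136 and, added after seeing the data, none), after centring on the 75th percentile and after quantile normalization. At 4 h the log2 ratio ran from 2.25 to 3.29 for UGT73B5 and from 1.26 to 1.42 for AER. The dim early values of UGT73B5 depended on the pseudocount: its 2 h ratio fell to 0.85, under 2-fold, with 136, and its 1 h ratio rose to 1.03, past 2-fold, with none. With 1 hour left out at a time, the mean log2 ratio ran from 0.94 to 2.11 for UGT73B5 and from 0.11 to 0.86 for AER, lowest without 4 h. Of the 41 tested genes of the detoxification lists, 0 passed the averaged test under any setting, with 6 at an unadjusted p under 0.05 by limma in the main setting. In the test of change with time, 1 rose, GRX480, and 0 rose without the filter or without the variance trend. Additionally 1 fell, ALDH7B4, with a pseudocount of 136, after quantile normalization and after centring on the 75th percentile (limma adjusted p = 0.010, 0.016 and 0.010), against 0.065 in the main setting. Over all probe sets that test called 59 higher and 48 lower, and 169 and 142, 167 and 129, and 200 and 137 under the same 3 settings. It called 0 and 0 without the filter, where limma gave 1958 an unadjusted p under 0.05, and without the variance trend (1452). The averaged test called 35 higher and 9 lower, against 0 and 0 without the filter (1821 unadjusted), 1 and 0 without the trend and 0 and 0 without the block (375 unadjusted). With 1 hour left out it called from 5 and 2, without 1 h, to 57 and 14, without 4 h. No paired analysis by replicate number was possible because each group holds 1 array, and without the harvest hour block the averaged test called no listed gene (0 at an unadjusted p under 0.05 by limma). Dim signals limit the UGT73 relatives, of which 1 of 6 was bright enough to test.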
